A study of Mus musculus with 15 samples.

Results

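hAT elements are a superfamily of DNA transposons, mobile elements that move by excision and reinsertion with a transposase that the full-length copies encode. The name joins hobo of the fruit fly, Ac of maize and Tam3 of snapdragon. In the mouse genome they survive as old, degraded copies of families such as hAT-Charlie, hAT-Tip100 and hAT-Blackjack, and many of the names (MER, URR, MamRep) belong to short non-autonomous derivatives that carry no transposase. piRNAs are the small RNAs that PIWI proteins bind in the germ line. In the adult testis most of them are cut from long single-stranded precursor transcripts, so a repeat copy that lies inside a precursor gives piRNAs along with the sequence around it.

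The hAT piRNAs are the loci of the 15 small RNA count tables whose repeat annotation has the class DNA and a family name that starts with hAT. A locus is one interval with its own start, end and strand, so reads that differ by 1 nucleotide at either end are separate loci. There were 46835 such loci among 8128951. They carried 74 element names in 6 families and came from 393 copies, a copy being a run of same-strand loci of one element with gaps of at most 1000 bases, and the copies lay in 186 regions with gaps of at most 100000 bases. hAT-Charlie held 41131 of the loci (42 names, 302 copies), hAT-Tip100 held 4731 (24 names, 55 copies), hAT-Ac 596, hAT-Blackjack 310, hAT-Tip100# 42 and hAT-Tag1 25. The other DNA transposons had 5784 loci and the MIR SINEs, another ancient repeat family, had 41171.

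All libraries came from whole testis of 8-week-old male C57Bl/6 mice, with RNA selected at 17 to 40 nt, and no mutant or cell line entered these comparisons. In 1 experiment, 3 libraries were treated with CMC, a carbodiimide that leaves a bulky adduct on pseudouridine (Ψ), and 3 were mock-treated. In the other, small RNA was immunoprecipitated with an antibody to Ψ, and input, the bound Ψ-IP fraction and the unbound flow-through were each sequenced in 3 libraries. The labels do not tell whether replicates are different mice, so p-values measure the spread between these libraries. The library totals ranged from 11575705 to 58399368 counts. Levels are given as CPM, the count per 1000000 counts of the library total scaled by a TMM factor. The counts cover piRNA loci and no mRNAs, so marker genes of the testis were not analysed here. The study's methods name different library kits without assigning them to the testis experiments. Levels of the experiments are set side by side without a test. A call means an adjusted p under 0.01 in edgeR's quasi-likelihood test over all loci, elements or families tested.

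The sequences that could be read are those of loci inside annotated exons, 380 of the 6229 hAT loci tested in either experiment (6.1%). The most abundant of them, by mean level over the 15 libraries, are shown with the first base in capitals, from the GENCODE M21 transcripts of GRCm38 (mm10), since a T (U in RNA) at the first position is the usual mark of a primary piRNA.
Charlie18a, chr17:27362456-27362485 on the plus strand, 30 nt: Tatgttggtcccgaaaatatcttgtggaga
Charlie18a, chr17:27362456-27362481 on the plus strand, 26 nt: Tatgttggtcccgaaaatatcttgtg
Charlie18a, chr17:27362410-27362439 on the plus strand, 30 nt: Tgctattttgaatgtcctatttgacaaaat
URR1B, chr6:87987764-87987793 on the minus strand, 30 nt: Tcctttcacaggggtcaccagcggataaca
URR1B, chr6:87987765-87987793 on the minus strand, 29 nt: Tcctttcacaggggtcaccagcggataac
The Charlie18a loci lie in an exon of the lincRNA Gm49794 on the same strand, and the URR1B loci on the strand opposite to an exon of Gm44168. Of the 380 loci with a sequence, 319 (84.0%) began with T, and these held 92.6% of the mean count of the 380. The first Charlie18a pair shares its 5′ end and differs by 4 nt at the 3′ end, and its members had different levels in the libraries. The 30-nt form was at 1.47 ± 0.117 CPM in mock, 23.5 ± 3.86 in input, 42.0 ± 6.78 in Ψ-IP and 6.22 ± 1.19 in flow-through (SD, n = 3 each). The 26-nt form was at 22.5 ± 1.14 CPM in mock, 7.02 ± 1.58 in input, 9.74 ± 0.583 in Ψ-IP and 3.89 ± 0.551 in flow-through. The 30-nt form was higher in Ψ-IP than in input (log2 fold change 0.84, adjusted p = 0.0012) and than in flow-through (2.76, adjusted p = 6.59e-19), and the 26-nt form passed the test only against flow-through (1.33, adjusted p = 0.000595) and not against input (0.47, adjusted p = 0.151).

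hAT piRNAs were a small share of all piRNA counts, and a few copies carried most of that share. The share was 1.81%, 1.79% and 1.83% in mock and 1.91%, 1.69% and 1.84% in CMC. It was 1.07%, 1.04% and 1.13% in input, 0.941%, 0.952% and 0.973% in Ψ-IP and 0.860%, 0.861% and 0.873% in flow-through. CMC and mock overlapped (exact two-sided permutation test on the shares, p = 1). Without the 10 most abundant loci the share was 0.579 ± 0.00277% in mock and 0.644 ± 0.0164% in CMC (SD, n = 3 each, exact permutation test, p = 0.1). The 3 Ψ-set groups did not overlap each other, with input highest and flow-through lowest, at p = 0.1 for each pair in the exact permutation test, the smallest that 3 against 3 libraries allow.

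**Figure D1:**
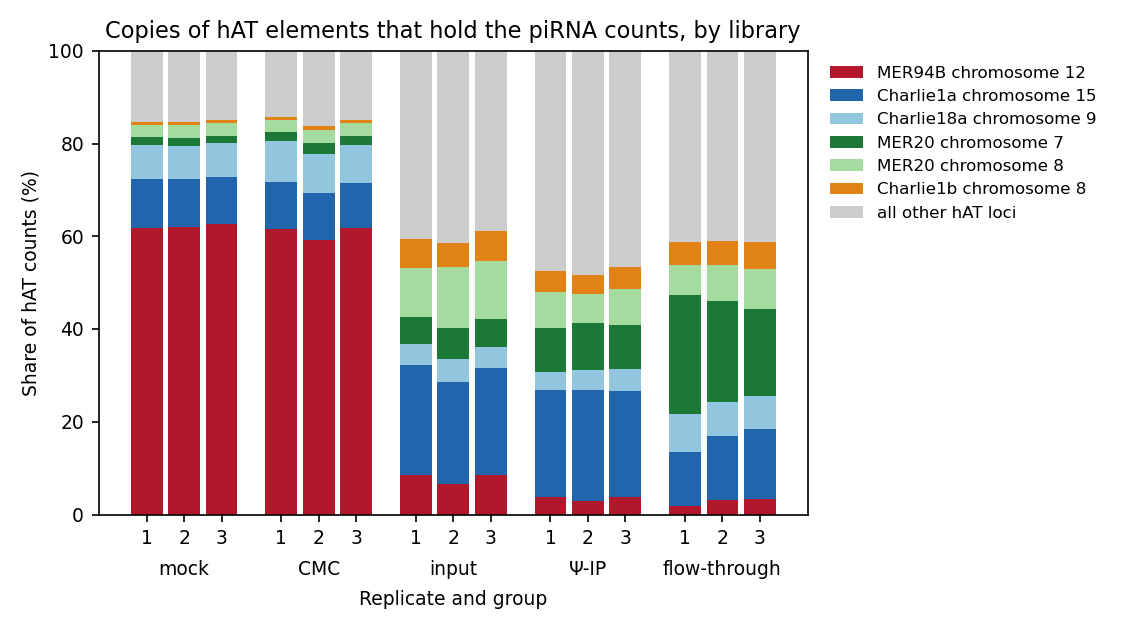
Share of the hAT count (%, vertical axis) held by 6 abundant copies and by all others in each of the 15 libraries. The MER94B copy fills 61.7 to 62.7% of the bar in the mock libraries and under 9% in the input libraries.

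The copy with the highest mean level over the 15 libraries was a MER94B fragment on the minus strand of chromosome 12, chr12:98400625-98400689, outside annotated genes. MER94B is a non-autonomous hAT-Blackjack element, and all its 178 loci lay in this copy. Its level was 11369, 11324 and 11874 CPM in mock, 11856, 9455 and 11094 in CMC, 994, 724 and 1037 in input, 320, 261 and 371 in Ψ-IP and 138, 265 and 278 in flow-through. A single 29-nt locus of it, chr12:98400625-98400653, held 57.6 to 58.8% of the hAT count in mock and 51.9 to 54.8% in CMC, against 2.82 to 4.07% in input, 0.813 to 1.68% in Ψ-IP and 0.825 to 1.67% in flow-through. The number of loci that together held 50% of the hAT count was 1 in each mock and CMC library, 73 to 89 in input, 79 to 92 in Ψ-IP and 57 to 80 in flow-through. The 10 loci with the highest mean level over the 15 libraries held 67.7 to 68.4% in mock and 23.1 to 25.02% in input. The sum in the CMC experiment is therefore mainly the value of 1 piRNA. In the Ψ-IP experiment at least 57 loci were needed to reach 50% of the hAT count of a library.

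By copy the count was concentrated in both experiments. The 5 copies with the highest mean level over the 15 libraries, the same 5 for every group, held 83.9 to 84.4% of the hAT count in mock, 83.0 to 85.0% in CMC, 53.1 to 54.6% in input, 47.6 to 48.6% in Ψ-IP and 52.8 to 53.9% in flow-through. They were not the 5 highest in each group. A URR1B copy on chromosome 9 (chr9:67704519-67705159) was at 676.5, 822.9 and 789.2 CPM in Ψ-IP. In all 3 Ψ-IP libraries it lay above MER94B, the Charlie18a copy and the MER20 copy of chromosome 8. It also lay above the Charlie18a copy in all 3 input libraries. A Charlie1b copy on chromosome 8 lay above MER94B in all 3 Ψ-IP and all 3 flow-through libraries. The Charlie1b copy lay above the Charlie18a copy in all 3 input libraries. After MER94B the set held a Charlie1a copy on chromosome 15 (chr15:59255294-59256316, minus strand, 5639 loci), a Charlie18a copy in an intron of Cyp19a1, the aromatase gene, on that gene's strand (chr9:54243134-54243254), and MER20 copies on chromosomes 7 (chr7:73120900-73121105, plus strand) and 8 (chr8:110122886-110123125, plus strand). MER20 is a short non-autonomous hAT-Charlie element. MER94B led in mock and CMC, where it held 59.1 to 62.7%. The Charlie1a copy led in input (22.1 to 23.7%) and Ψ-IP (23.0 to 23.9%), and the MER20 copy of chromosome 7 led in flow-through (18.7 to 25.6%). The region of MER94B, chr12:98369445-98455940, held 62.6 to 63.6% of the hAT count in mock, 59.9 to 62.7% in CMC, 7.504 to 9.43% in input, 3.77 to 4.87% in Ψ-IP and 2.35 to 4.07% in flow-through. The region of the Charlie1a copy, chr15:59255294-59304381, held 12.1 to 12.5% in mock, 24.9 to 25.9% in input, 27.1 to 27.9% in Ψ-IP and 18.7 to 21.2% in flow-through. Of the 23 element names described here, 14 had at least 90% of their count in 1 copy, so that a value for an element name is often the value of 1 place in the genome.

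Copies of one element did not move as one. The MER20 copy on chromosome 7 was at 694, 746 and 750 CPM in input, 792, 910 and 951 in Ψ-IP and 2036, 1914 and 1584 in flow-through. The MER20 copy on chromosome 8 was at 1219, 1461 and 1542 CPM in input, 654, 579 and 773 in Ψ-IP and 527, 685 and 719 in flow-through. Flow-through thus lay above both other groups for the first copy, and input above both for the second, without overlap. Summed, MER20 was lower in Ψ-IP than in input (log2 fold change -0.33, SE 0.09, adjusted p = 0.00103) and higher in flow-through than in input (0.33, SE 0.08, adjusted p = 0.00362). The first MER20 call was lost with DESeq2 size factors (-0.16, adjusted p = 0.104) and without input 2 (-0.30, adjusted p = 0.0117), input 3 (-0.29, adjusted p = 0.0314) or Ψ-IP 2 (-0.30, adjusted p = 0.0179). The second was lost without input 1 (0.26, adjusted p = 0.0194) or flow-through 2 (0.30, adjusted p = 0.0148).

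Families were compared first, since the question of the Ψ-IP experiment is which piRNAs the antibody retained. The 3 comparisons among input, Ψ-IP and flow-through share libraries and are not independent of each other. hAT-Blackjack was at 996, 725 and 1039 CPM in input, 321, 262 and 373 in Ψ-IP and 140, 266 and 280 in flow-through, with no overlap between input and the others. It was lower in Ψ-IP than in input by 1.53 on the log2 scale (log2 fold change -1.53, SE 0.13, adjusted p = 5.31e-13). hAT-Tip100, the family of Arthur, Zaphod and MER45 elements, was at 934, 789 and 918 CPM in input, 503, 517 and 527 in Ψ-IP and 364, 444 and 452 in flow-through (Ψ-IP against input -0.77, SE 0.10, adjusted p = 4e-08). hAT-Ac was at 25.8, 23.8 and 28.2 CPM in input, 8.55, 13.4 and 12.7 in Ψ-IP and 16.6, 18.01 and 18.8 in flow-through (-1.16, SE 0.16, adjusted p = 6.58e-08). hAT-Charlie was at 9807, 9510 and 10331 CPM in input and 7553, 8210 and 9024 in Ψ-IP (-0.26, SE 0.07, adjusted p = 0.00226). All 4 tested hAT families were thus lower in Ψ-IP than in input, where 50% of the 24 families tested were called lower and 0% higher. That background moved with the scaling. With DESeq2 size factors 5 of the 24 families were called lower and 4 higher, and with DESeq2's Wald test 5 and 3. The median log2 fold change over the 24 families was -0.23, so that the hAT-Charlie value lay near it. Over all tested loci the median was -0.15. The hAT-Charlie call was lost with DESeq2 size factors (-0.09, adjusted p = 0.183) and without input 1, 2 or 3 or Ψ-IP 2 (adjusted p = 0.0143, 0.0178, 0.0437 and 0.0179). The hAT-Ac call was lost with DESeq2's Wald test (-0.9998, adjusted p = 0.0126).

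**Figure D2:**
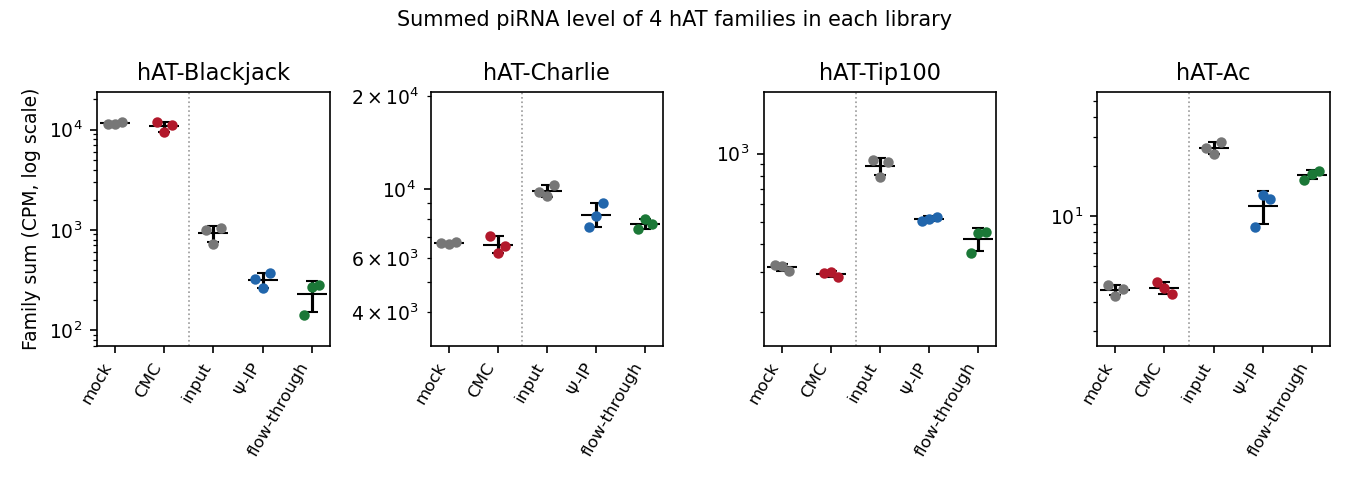
Level of the 4 tested hAT families (CPM, log axis) in the 15 libraries by group, with a point for each library and a bar for the group mean. hAT-Blackjack lies at 9458 CPM or above in mock and CMC and at 1039 CPM or below in the 3 groups of the Ψ-IP experiment.

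Flow-through was also below input in all 4 tested families, with log2 fold changes of -2.01 for hAT-Blackjack (adjusted p = 0.000336), -1.07 for hAT-Tip100 (adjusted p = 0.000196), -0.55 for hAT-Ac (adjusted p = 0.00328) and -0.36 for hAT-Charlie (adjusted p = 0.000336), where 41.7% of families were called lower. Between the bound and unbound fractions only hAT-Ac passed the test and was lower in Ψ-IP (-0.62, SE 0.19, adjusted p = 0.00978), beside 33.3% of families called lower and 25% higher. The hAT-Ac call was lost with the replicate number as a block (-0.64, adjusted p = 0.0173), with DESeq2 size factors (-0.45) and without Ψ-IP 1, Ψ-IP 3, flow-through 2 or flow-through 3 (adjusted p = 0.0406, 0.0356, 0.0246 and 0.0149). It was also lost without the most abundant hAT-Ac locus (-0.29, adjusted p = 0.208). That locus held 22.0 to 26.7% of the hAT-Ac count in flow-through and 3.66 to 8.04% in Ψ-IP. In flow-through against input the call for hAT-Ac was lost under the block (-0.54, adjusted p = 0.0118) and without input 1, input 3 or flow-through 2 (adjusted p = 0.0141, 0.0211 and 0.013). The values for hAT-Blackjack (0.48, adjusted p = 0.048, called without flow-through 2 or flow-through 3 at adjusted p = 0.00318 and 0.00511), hAT-Tip100 (0.30, adjusted p = 0.0411) and hAT-Charlie (0.10, adjusted p = 0.287) did not pass. The hAT-Blackjack value was 0.73 without its most abundant locus (adjusted p = 0.00306) and turned to -0.17 without its 10 most abundant loci (adjusted p = 0.492). With DESeq2 size factors hAT-Tip100 (0.46, adjusted p = 0.00206) and hAT-Charlie (0.26, adjusted p = 0.00415) were called higher in Ψ-IP. hAT-Tip100# stayed under 2 CPM and hAT-Tag1 under 1 CPM in every library, and neither was tested at this level.

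With CMC, 0 of the 4 hAT families were called by edgeR, and 0 had an unadjusted p under 0.05. hAT-Charlie was at 6720, 6647 and 6751 CPM in mock and 7068, 6235 and 6562 in CMC (log2 fold change -0.02, adjusted p = 0.681), and hAT-Ac gave 0.06 (adjusted p = 0.681). hAT-Blackjack was at 11372, 11327 and 11877 CPM in mock and 11860, 9458 and 11096 in CMC (-0.09, SE 0.07, adjusted p = 0.292). hAT-Tip100 was at 322, 320 and 303 CPM in mock and 296, 300 and 284 in CMC, lower in 9 of 9 pairs of libraries (-0.10, adjusted p = 0.131). The share of all 23 families called was 8.7% lower and 0% higher. Without its 1 most abundant locus, hAT-Blackjack was higher with CMC (0.82, adjusted p = 1.3e-05), a sum that the other MER94B forms then make up.

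At the level of element names, 6 of 39 tested hAT elements were higher and 16 lower in Ψ-IP than in input (edgeR, adjusted p under 0.01), against 6.33% and 28.2% of the 411 elements tested. DESeq2's Wald test gave 8 and 13, beside 48 and 65 of the 411. Arthur1, the element with the largest increase, was at 8.00, 8.31 and 9.48 CPM in input, 17.2, 17.3 and 19.4 in Ψ-IP and 4.42, 6.97 and 5.48 in flow-through. Its Ψ-IP values were above every input and flow-through value (log2 fold change 1.07 against input, SE 0.14, adjusted p = 7.13e-10, and 1.69 against flow-through, adjusted p = 6.07e-07). MER58D was at 12.7, 14.2 and 11.97 CPM in input and 18.6, 22.8 and 21.9 in Ψ-IP (0.71, SE 0.13, adjusted p = 3.18e-06). Arthur1 and MER58D each came from 1 copy. Charlie12 (0.38, adjusted p = 0.000539), MER63A (0.41, adjusted p = 0.00221) and MER45A (0.38, adjusted p = 0.00175) were higher by less than 1.5-fold. The MER63A call was lost without input 1, input 3 or Ψ-IP 3 (adjusted p = 0.0169, 0.0228 and 0.061), and the MER45A call without input 3, Ψ-IP 2 or Ψ-IP 3 (adjusted p = 0.0204, 0.0539 and 0.0105).

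Among the elements lower in Ψ-IP than in input, MER94B gave -1.53 (SE 0.10, adjusted p = 2.72e-22). MamRep38, a hAT-Tip100 element from 1 copy, was at 309, 232 and 323 CPM in input, 121, 102 and 109 in Ψ-IP and 65.9, 76.8 and 92.02 in flow-through (-1.38, adjusted p = 2.78e-20). Arthur1B was at 207, 173 and 189 CPM in input, 76.3, 64.4 and 80.6 in Ψ-IP and 145, 165 and 167 in flow-through (-1.36, adjusted p = 1.76e-20). These elements differed in where flow-through lay. For MamRep38 it was the lowest group, and for Arthur1B it lay between the others. Charlie19a, again 1 copy, was at 202, 172 and 192 CPM in input, 79.2, 66.2 and 88.7 in Ψ-IP and 287, 231 and 261 in flow-through (-1.27 against input, adjusted p = 6.64e-19, and -1.73 against flow-through, adjusted p = 4.96e-09). MamRep1894 (-1.22, adjusted p = 1.49e-10), OldhAT1 of the hAT-Ac family (-1.19, adjusted p = 4.25e-12), Charlie1b (-0.79, adjusted p = 1.35e-10), URR1A (-0.78, adjusted p = 2.43e-10) and MER5A1 (-0.70, adjusted p = 4.95e-09) were also lower. Charlie1a, second by mean level over the 15 libraries, gave -0.27 (adjusted p = 0.00633), a call that was lost with DESeq2 size factors (-0.10, adjusted p = 0.304) and without input 1, input 3, Ψ-IP 1 or Ψ-IP 2 (adjusted p = 0.0725, 0.0971, 0.0235 and 0.0269). Charlie18a, Charlie1, URR1B and RMER30 did not pass the test against input.

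**Figure D3:**
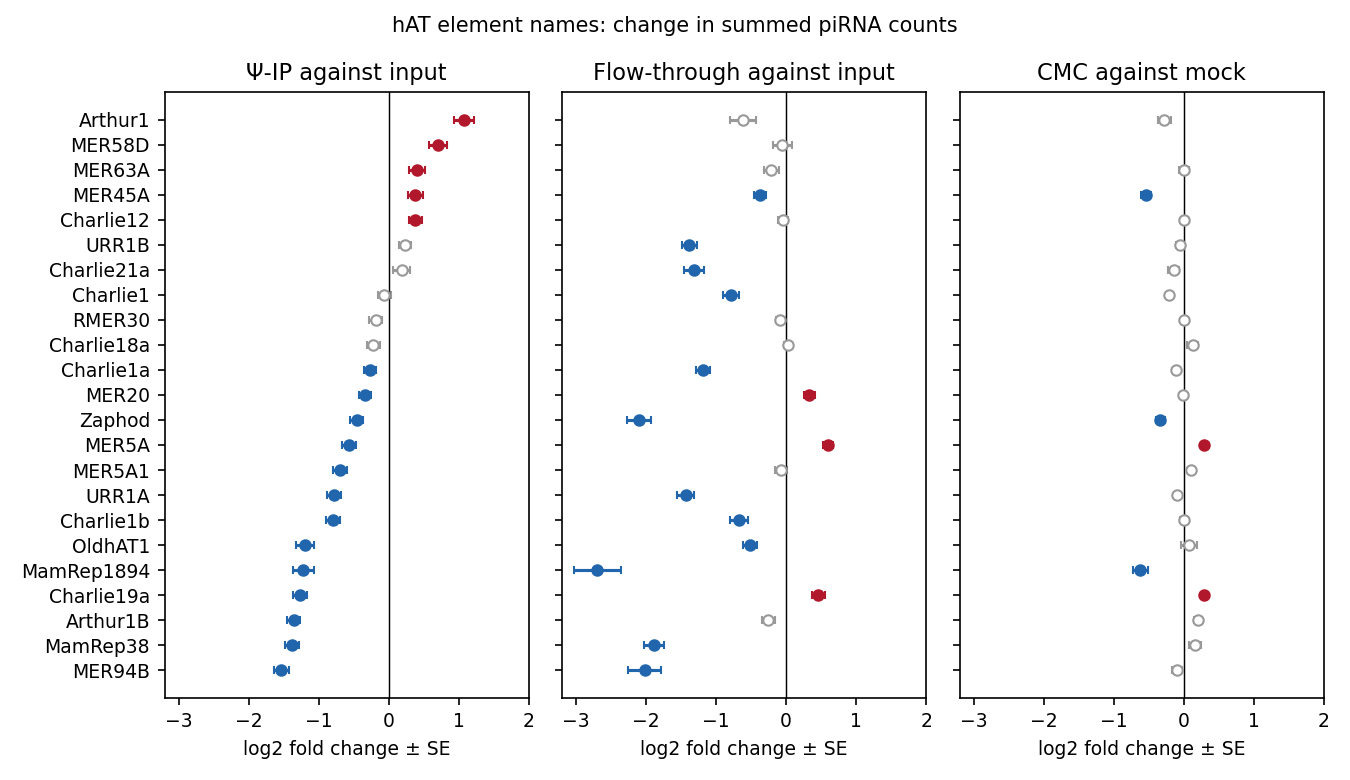
Log2 fold changes of the 23 described hAT elements (horizontal axis, with standard errors). The panels show Ψ-IP against input, flow-through against input and CMC against mock, with filled points for adjusted p under 0.01. Arthur1 lies at 1.07 and MER94B at -1.53 for Ψ-IP against input, and values for CMC against mock stay between -0.62 and 0.30.

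Between the bound and unbound fractions, 17 of 38 hAT elements were higher in Ψ-IP and 8 lower, against 22.2% and 22.9% of 410. URR1B, a rodent-restricted hAT-Charlie element, was at 783, 966 and 914 CPM in Ψ-IP and 238, 322 and 310 in flow-through (log2 fold change 1.61, SE 0.12, adjusted p = 1.17e-08), beside 757, 775 and 736 in input. Zaphod was at 154, 174 and 159 CPM in Ψ-IP and 36.0, 60.5 and 60.2 in flow-through (1.64, adjusted p = 1.96e-07), beside 241, 211 and 217 in input. Charlie21a gave 1.503 (adjusted p = 1.14e-06), MamRep1894 1.45 (adjusted p = 0.00118) and Charlie1a 0.92 (adjusted p = 2.89e-06). The lower elements were led by Charlie19a, MER5A (-1.17, adjusted p = 3.83e-07), Arthur1B (-1.11, adjusted p = 3.83e-07), OldhAT1 (-0.69, adjusted p = 0.00187) and MER20 (-0.66, adjusted p = 2.28e-05). Without Ψ-IP 3 the number of hAT elements called fell from 25 to 16, and the call for MamRep1894 was lost (1.38, adjusted p = 0.0487). OldhAT1 was lost without Ψ-IP 1 (-0.51, adjusted p = 0.014) or Ψ-IP 3 (-0.80, adjusted p = 0.0116) and with DESeq2 size factors (-0.52, adjusted p = 0.0167). In flow-through against input, 3 of 38 hAT elements were higher and 18 lower, beside 12.3% and 30.8% of 413. MER5A (0.59, adjusted p = 5.43e-05), Charlie19a (0.46, adjusted p = 0.00182) and MER20 were higher. MamRep1894 (-2.70), Zaphod (-2.10), MER94B (-2.02), MamRep38 (-1.88) and URR1A (-1.44) had the largest decreases. The Charlie19a call in flow-through was lost without input 2 (0.40, adjusted p = 0.0102).

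With CMC, 2 of 43 hAT elements were higher and 3 lower than in mock, against 1.15% and 4.82% of 436. MER45A, an element of the hAT-Tip100 family, was at 66.3, 67.4 and 66.7 CPM in mock and 51.0, 44.9 and 41.3 in CMC (log2 fold change -0.54, SE 0.07, adjusted p = 0.000411). MamRep1894 was at 8.26, 8.12 and 9.82 CPM in mock and 5.26, 5.79 and 6.10 in CMC (-0.62, adjusted p = 0.00218). Zaphod was at 63.5, 67.5 and 59.8 CPM in mock and 50.05, 52.7 and 49.0 in CMC (-0.33, adjusted p = 0.00264). Charlie19a was at 62.1, 57.9 and 59.6 CPM in mock and 72.8, 70.1 and 77.5 in CMC (0.30, adjusted p = 0.00293), and MER5A at 88.7, 84.0 and 81.5 in mock and 108, 101 and 102 in CMC (0.29, adjusted p = 0.00218). The groups did not overlap for any of these 5 elements. With the replicate number as a block, 3 were higher and 4 lower, beside 18 and 51 of all 436 elements. The additions were Arthur1B (0.21, adjusted p = 0.00634) and Charlie1 (-0.21, adjusted p = 9.96e-06). Without mock 2 or mock 3 the number called was 2. MER45A was called in each fit with 1 library left out, whereas MER5A and Charlie19a were lost without mock 2 or mock 3, Zaphod without mock 1 or mock 2 and MamRep1894 without mock 3 (adjusted p = 0.0101 to 0.0267).

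Single loci showed both directions within the same copies. Of 46835 hAT loci, 4606 passed the count minimum in the Ψ-IP experiment and held 93.1% of the hAT count there. In Ψ-IP against input, 191 of them (4.15%) were higher and 673 (14.6%) lower, beside 4.95% and 11.1% of all 686863 loci tested. The other DNA transposons had 7.44% higher and 9.48% lower, and MIR loci 3.78% and 16.6%. The median log2 fold change was -0.32 over the tested hAT loci and -0.15 over all tested loci. By family, 0 of 26 tested hAT-Blackjack loci were higher and 17 lower, hAT-Charlie had 174 and 572 of 4156, hAT-Tip100 17 and 80 of 402, and hAT-Ac 0 and 4 of 21. The element Charlie1a, with 92.5% of its count in 1 copy, gave 1085 of the tested loci, of which 36 were higher and 233 lower. Many calls are therefore overlapping forms of 1 place. The hAT total of 864 fell to 473 without input 1 and to 500 without input 3. With DESeq2's Wald test 196 hAT loci were higher and 329 lower, beside 30451 and 38241 of all 686863 loci.

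Against flow-through, 448 tested hAT loci (9.73%) were higher in Ψ-IP and 256 (5.56%) lower, beside 7.29% and 5.57% of all loci, and the median was 0.01 beside -0.29 over all loci. Charlie1a gave 143 of the higher and 45 of the lower loci. The hAT sum of 704 fell to 467 without Ψ-IP 2. With DESeq2's Wald test 417 hAT loci were higher and 146 lower, beside 46582 and 22198 of all 686863 loci. In flow-through against input, 240 (5.21%) were higher and 600 (13.03%) lower, beside 6.58% and 8.88%, with a median of -0.69 beside -0.19. Charlie1a gave 9 of these higher and 224 of these lower loci. The 840 hAT calls became 469, 496 and 412 without input 1, 2 and 3.

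The Charlie1a copy on chromosome 15 gave loci of opposite direction within 40 bases. The 27-nt locus chr15:59255801-59255827 was at 4.19, 3.29 and 4.28 CPM in input, 6.72, 6.70 and 4.91 in Ψ-IP and 0, 0.0549 and 0.339 in flow-through, where it had 0, 1 and 5 counts. The 28-nt locus chr15:59255810-59255837, whose interval overlaps it, was at 14.1, 10.1 and 15.7 CPM in input, 0.840, 0.817 and 0.555 in Ψ-IP and 6.66, 7.91 and 8.60 in flow-through. The first was near absent from flow-through and the second was lower in Ψ-IP than in input (log2 fold change -4.21, adjusted p = 1.14e-35) and than in flow-through (-3.41, adjusted p = 6.55e-15). Another locus of the copy, chr15:59255574-59255603, had 77, 35 and 56 counts in input and 0, 0 and 1 in Ψ-IP.

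The same held in the MER20 copy on chromosome 7. Its 29-nt locus chr7:73121028-73121056 was at 182, 200 and 176 CPM in input, 374, 415 and 389 in Ψ-IP and 1016, 885 and 707 in flow-through, so that both fractions lay above input (1.08, adjusted p = 1.17e-06, for Ψ-IP, and 2.22, adjusted p = 9.45e-09, for flow-through). The Ψ-IP call was lost with no count minimum (1.08, adjusted p = 0.0106). The 27-nt locus chr7:73121072-73121098 had 87, 43 and 50 counts in input, 2, 8 and 0 in Ψ-IP and 0, 2 and 4 in flow-through. A MER5A1 locus of the same region, chr7:73117449-73117478, was at 8.78, 7.86 and 10.7 CPM in input, 0.458, 0.572 and 0.0854 in Ψ-IP and 3.39, 1.54 and 3.18 in flow-through (Ψ-IP against input -4.80, adjusted p = 5.03e-34).

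The largest increases in Ψ-IP over input were at low loci. The Charlie12 locus chr10:62657181-62657210 was at 0.262, 0.902 and 0.463 CPM in input, 3.51, 3.59 and 5.08 in Ψ-IP and 0.730, 0.769 and 0.271 in flow-through (log2 fold change 2.98 against input, adjusted p = 2.6e-13, and 2.74 against flow-through, adjusted p = 4.18e-08). A MER63A locus in an exon of the lincRNA AC140207.2, chr18:67070660-67070691, was at 0.524, 1.67 and 0.578 CPM in input, 4.12, 3.43 and 4.44 in Ψ-IP and 0.172, 0.220 and 0.0677 in flow-through (2.17, adjusted p = 1.73e-08 against input). The abundant URR1B locus chr9:67705057-67705086 was at 310, 337 and 307 CPM in input, 340, 452 and 419 in Ψ-IP and 62.4, 96.0 and 90.1 in flow-through, higher in Ψ-IP than in flow-through (2.28, adjusted p = 6.38e-19). Its mock values were 3.54, 3.63 and 2.81 CPM. The Charlie18a locus chr17:27362410-27362439 printed above had 49, 31 and 39 counts in input, 50, 60 and 57 in Ψ-IP and 0, 2 and 0 in flow-through. Among loci high in flow-through, the MER3 locus chr5:113354007-113354034 was at 0.918, 0.902 and 1.16 CPM in input, 3.13, 3.51 and 4.70 in Ψ-IP and 12.3, 11.0 and 7.86 in flow-through (3.39 for flow-through against input, adjusted p = 2.72e-08). The Charlie12 locus chr17:27308799-27308828 in an intron of Gm49793 gave 3.49 (adjusted p = 2.1e-07).

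With CMC, 58 of the 3532 tested hAT loci (1.64%) were higher and 15 (0.425%) lower than in mock, beside 1.07% and 0.667% of all 556583 loci. With the replicate number as a block, 63 hAT loci were higher and 27 lower, beside 6817 and 5731 of all 556583 loci. The total of 73 became 37 without mock 2, 43 without mock 3 and 41 without CMC 2. Of the 3749 MIR loci tested, 74 (1.97%) were higher and 0 lower by the same edgeR test. hAT-Blackjack held 24 of the 58 higher loci, all from MER94B, among 62 tested, and hAT-Charlie held 32 among 3146, with Charlie1a at 12 and MER20 at 8. The 15 lower loci included 5 of MER20, 3 of MER45A and 2 of RMER30.

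Of the 24 higher loci of MER94B, 22 lacked 1 to 3 nt at the 5′ end of a more abundant form. On the minus strand the 5′ end is the higher coordinate, and the 29-nt form chr12:98400625-98400653 was at 10609, 10618 and 11132 CPM in mock and 10540, 8302 and 9663 in CMC, lower in 9 of 9 pairs of libraries but not past the test (log2 fold change -0.18, SE 0.10, adjusted p = 0.402). The form with the same 3′ end and 1 nt fewer at the 5′ end was at 5.69, 7.16 and 6.37 CPM in mock and 291, 297 and 380 in CMC (5.65, SE 0.15, adjusted p = 2.88e-30). The form 2 nt shorter was at 1.49, 1.87 and 1.47 CPM in mock and 213, 221 and 322 in CMC (7.27, SE 0.17, adjusted p = 3.19e-31). The form 3 nt shorter was at 0.515, 0.648 and 0.542 CPM in mock and 9.06, 9.94 and 17.4 in CMC (4.38). Relative to the 29-nt form, the first shortened form went from 0.0607% in mock to 3.26% in CMC and the second from 0.0153% to 2.52%. The form 4 nt shorter did not pass the test (0.72, adjusted p = 0.31). A second 3′ end of the copy, 1 nt inside the first, had the same series, with 0.19 CPM in mock and 16.02 in CMC at 27 nt (6.23). In the Ψ-IP experiment the form 2 nt shorter had 24, 3 and 20 counts in input, 1, 0 and 2 in Ψ-IP and 0, 2 and 1 in flow-through.

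**Figure D4:**
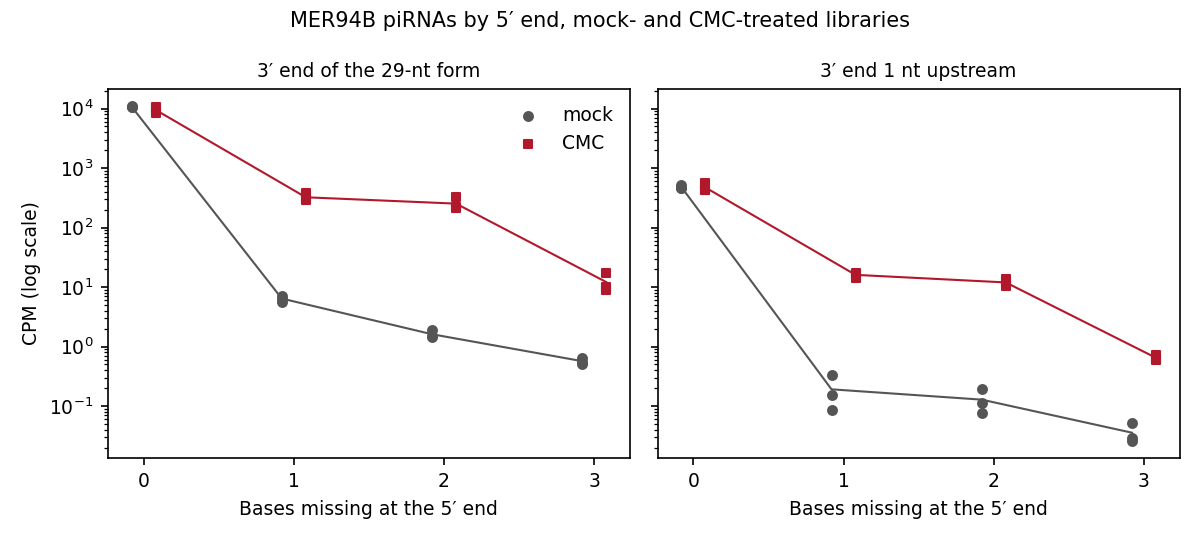
Level (CPM, log axis) of the MER94B piRNA with 0 to 3 bases removed at the 5′ end and a fixed 3′ end, for each mock and CMC library. The unshortened form lies slightly lower in the CMC libraries (8302 to 10540 CPM) than in the mock libraries (10609 to 11132 CPM), and the 3 shortened forms lie higher in every CMC library than in any mock library.

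This pattern was seen first in MER94B and then counted over all loci, so it is a description. A locus was called 5′-shortened when another locus with the same 3′ end, starting 1 to 3 nt upstream, was at least 10 times as abundant over the 6 libraries. Among tested hAT loci, 41 of 272 such forms (15.1%) were higher with CMC and 0 lower, whereas 1 of 320 forms shortened only at the 3′ end was higher. MER94B gave 22 of its 25, and hAT loci without MER94B gave 19 of 247 (7.69%). Over all piRNA loci 3418 of 39708 5′-shortened forms (8.61%) and 185 of 40170 forms shortened only at the 3′ end (0.46%) were higher, so the hAT share outside MER94B lay near that of all piRNAs. Of the 58 hAT loci higher with CMC, 41 were therefore 5′-shortened forms. The RMER30 locus chr9:67721127-67721154 (0.6, 0.788 and 0.851 CPM in mock and 3.34, 4.11 and 3.78 in CMC, log2 fold change 2.30, adjusted p = 1.73e-11) and the Charlie18a locus chr9:54243205-54243233 (1.23, 1.47 and 1.03 in mock and 3.30, 2.35 and 3.32 in CMC, 1.26, adjusted p = 2.12e-05) were among the largest increases in other copies.

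Loci that were both higher in Ψ-IP than in input and lower with CMC were looked for, since both readouts address Ψ. Of 1909 hAT loci tested in both experiments, 110 were higher in Ψ-IP, 13 were lower with CMC and 5 were both (0.262%), beside 805 of 293568 loci in all (0.274%). The 5 loci were forms from 3 copies. The MER20 locus chr15:59268788-59268816 was at 31.8, 34.7 and 38.0 CPM in mock and 24.5, 21.8 and 20.6 in CMC (log2 fold change -0.64, adjusted p = 0.000643), and at 4.54, 7.99 and 5.49 in input, 15.2, 23.3 and 31.9 in Ψ-IP and 34.3, 51.6 and 19.98 in flow-through (1.98 for Ψ-IP against input, adjusted p = 4.06e-14). Flow-through and Ψ-IP overlapped for this locus, and both lay above input. Its form 1 nt longer at the 3′ end, chr15:59268787-59268816, gave -0.70 with CMC (adjusted p = 0.00127) and 2.17 in Ψ-IP (adjusted p = 2.5e-08). The RMER30 locus chr9:67741081-67741110 was at 8.17, 4.46 and 4.64 CPM in mock and 3.41, 3.56 and 3.28 in CMC (-0.74, adjusted p = 0.00875), and at 11.6, 9.02 and 10.5 in input, 28.8, 20.6 and 22.7 in Ψ-IP and 1.29, 1.81 and 1.90 in flow-through. This locus was above input and far above flow-through in Ψ-IP (1.21, adjusted p = 4.39e-06, and 3.86, adjusted p = 5.09e-28), as was its form 1 nt longer (1.57 and 3.59). The RMER30 copy as a whole, chr9:67740992-67741162, went the other way, at 212.2, 202.2 and 211.7 CPM in input and 148.7, 131.8 and 157.4 in Ψ-IP. The MER20 copy, chr15:59268653-59268844, was higher like its loci, at 91.01, 111.8 and 88.07 CPM in input and 140.7, 145.5 and 177.6 in Ψ-IP. Copies were not tested. The MER45A locus chr8:110127713-110127743 was at 8.23, 8.77 and 9.49 CPM in mock and 5.80, 4.89 and 5.32 in CMC (-0.72, adjusted p = 0.000897), and at 4.33, 6.70 and 4.68 in input and 8.17, 11.2 and 8.71 in Ψ-IP (0.84, adjusted p = 0.00694), with 6.92, 7.85 and 7.86 in flow-through (0.31 for Ψ-IP against flow-through, adjusted p = 0.516). The Ψ-IP call of this MER45A locus was lost without input 1, input 3 or Ψ-IP 2 (adjusted p = 0.109, 0.0707 and 0.0337), in one fit over 9 libraries (0.0265) and with no count minimum (0.0659). The count of 5 became 3, 2 and 2 without mock 1, 2 and 3, and 1 and 2 without CMC 2 and 3, and each of the 5 lost its CMC call in at least 1 of these fits. The RMER30 locus chr9:67741081-67741110 gave -0.41 with CMC without mock 1 (adjusted p = 0.286), and its call was also lost with DESeq2's Wald test (adjusted p = 0.0329) and with an average minimum of 10 counts (adjusted p = 0.0118).

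Lengths were those of piRNAs. Reads of 29 to 31 nt made up 72.6 ± 0.714% of the hAT count in input, 74.1 ± 0.448% in Ψ-IP and 73.7 ± 0.127% in flow-through (SD, n = 3 each), with the mode at 30 nt. Ψ-IP lay 1.52 percentage points above input without overlap (exact two-sided permutation test, p = 0.1), and 0.339 above flow-through with overlap (exact permutation test, p = 0.4). Over loci of 24 to 33 nt Ψ-IP and input overlapped, at a difference of 1.13 (p = 0.2 in the exact test), and with each locus counted once the difference was 5.92 (p = 0.1 in the exact test). Ψ-IP minus flow-through turned to -0.52 over loci of 24 to 33 nt (p = 0.2 in the exact test). With each locus counted once it was 2.05 (p = 0.1 in the exact test). Over all piRNA loci the share was 66.8 to 67.7% in input and 68.4 to 69.7% in Ψ-IP, so it was higher in Ψ-IP there too. In mock the share was 82.7 ± 0.182% and in CMC 78.4 ± 1.31%, CMC minus mock being -4.29 points (p = 0.1 in the exact test), with the mode at 29 nt. With each hAT locus counted once the difference was -0.757 (p = 0.5 in the exact test). Over all piRNA loci the share was 58.7 to 61.1% in mock and 55.7 to 59.0% in CMC, which overlap. Without the 29-nt MER94B locus the mode in both was 30 nt, and the shares were 57.4 to 59.3% in mock and 50.7 to 55.3% in CMC. The mock and CMC tables hold loci of 14 to 33 nt and those of the Ψ-IP experiment loci of 15 to 44 nt.

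**Figure D5:**
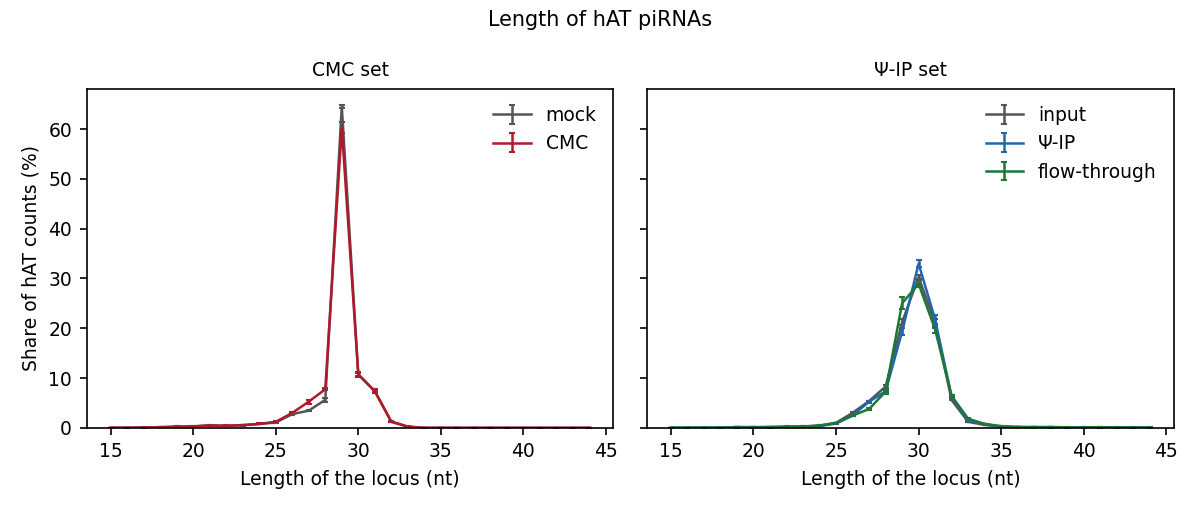
Length profile of hAT piRNA counts (length in nt, horizontal axis; share of the hAT count in %, vertical axis) as group means of 3 libraries. The peak at 29 nt in mock and CMC comes from the MER94B locus, and the Ψ-set groups peak at 30 nt.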

How the data were processed

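Whole-testis small RNA was sequenced in 15 libraries, 3 in each of 5 groups. Per the labels and the study's methods, adapters were trimmed with Cutadapt, reads of 14 to 44 nt were kept and tRNA fragments set aside, and reads were aligned to mm10 with Bowtie 2 (0 to 3 mismatches) and annotated with BEDTools against UCSC repeats. The study's methods give no versions of these tools. Its reporting summary lists versions of Bowtie 2 and BEDTools, but it describes plant ChIP-seq and does not mention the testis libraries. The treatment of reads that map to several places is not given in the sources used here. Near-identical copies may therefore share reads, and their values are uncertain. The files deposited by the authors hold raw counts per locus and library. Interval starts, counted from 0 there, are given from 1.

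hAT loci were taken from the repeat annotation; 11 were also listed under a second repeat. The members, lists and comparisons were chosen with earlier results of these data known. Loci were tested with edgeR 4.0.16 (R 4.3.3), quasi-likelihood F test with TMM factors and Benjamini-Hochberg adjustment over all loci with more than 20 counts over the libraries of an experiment, and element names and families on summed counts with averages of at least 20 and 100. Shares were compared with exact two-sided permutation tests. Named were all families, the 10 most abundant elements and 8 most abundant loci, and per comparison up to 5 elements and 3 loci a direction with the largest fold change and 9 of 9 pairs of libraries in that direction (for loci, 50 counts or more on average in the higher group and at most 1 a copy), and loci with both changes; other loci were chosen after their values were seen. Alternatives were DESeq2 1.42.0, other minimums, the replicate number as a block and leaving out each library. The residuals about each group mean correlated between mock and CMC libraries of the same number at 0.125, 0.148 and 0.294 over loci averaging over 50 counts, different numbers at -0.342 to 0.230, and same numbers at 0.0532, 0.072 and 0.169 over loci averaging over 10, so the pairing is uncertain and the blocked counts stand beside the CMC calls. The locus fits were tested on simulated data with known changes drawn over all loci, most of which were not recovered in the Ψ-IP experiment, so a locus without a call is not shown to be unchanged. Replicates of every group differed by more than sampling noise over hAT loci (chi-square per degree of freedom 1.85 to 7.98).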

Additional observations from a re-analysis of the deposited data

How the results depend on the processing

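Named elements and loci were refitted in the comparisons where they were called, and those kept their direction under the alternatives run. For Ψ-IP against input, the 864 hAT loci called became 510 in one fit over 9 libraries, 568 with no count minimum and 525 with DESeq2's Wald test, and for CMC against mock the 73 became 48 with that test. DESeq2 size factors moved the median log2 fold change of all loci from -0.15 to 0.01 for Ψ-IP against input and from -0.29 to -0.13 for Ψ-IP against flow-through. With them, or with the Wald test, hAT-Charlie gave -0.092 against input (adjusted p = 0.183 and 0.182) and 0.26 against flow-through, and hAT-Tip100 gave 0.46 against flow-through, now called. In Ψ-IP against flow-through, hAT-Ac gave -0.45 with size factors, -0.46 with the Wald test, -0.62 with no minimum, -0.29 without its most abundant locus and -0.31 without its 10 most abundant, none called. In the same comparison hAT-Blackjack gave 0.64 with the Wald test and 0.73 without its most abundant locus, both called, and -0.17 without 10 loci. The Wald test lost hAT-Ac in Ψ-IP against input (-0.9998) and in flow-through against input (-0.55), where it was also lost without 10 loci (-0.67). For CMC, hAT-Blackjack reversed to 0.82 without its most abundant locus and to 0.78 without 10. Over loci of 24 to 33 nt, the 29 to 31 nt share in Ψ-IP minus flow-through turned to -0.52 percentage points.

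Leaving out each library in turn, called hAT loci ranged from 473 to 859 for Ψ-IP against input, 467 to 596 for Ψ-IP against flow-through, 412 to 960 for flow-through against input and 37 to 92 for CMC, and loci with both changes from 1 to 5. Called elements ranged from 16 to 25 for Ψ-IP against flow-through and 2 to 7 for CMC. The log2 fold change of hAT-Charlie in Ψ-IP against input ranged from -0.33 to -0.20, that of hAT-Ac and hAT-Blackjack in Ψ-IP against flow-through from -0.72 to -0.45 and 0.23 to 0.65, and that of hAT-Ac in flow-through against input from -0.60 to -0.48. For CMC, hAT-Ac ranged from -0.015 to 0.12, hAT-Charlie from -0.068 to 0.023, and the difference in the hAT share from -0.0441 to 0.0618 percentage points. Other causes of these changes were not tested.

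In the Ψ-IP experiment the numbers were not taken to pair the libraries, since not every same-number correlation was over 0.1 (0.256, 0.302 and -0.0337 for Ψ-IP against input, 0.0953, 0.177 and -0.0411 for Ψ-IP against flow-through, -0.0853, 0.166 and 0.0117 for flow-through against input). With the replicate number as a block, 753, 584 and 851 hAT loci and 23, 26 and 22 elements were called for Ψ-IP against input, Ψ-IP against flow-through and flow-through against input, and hAT-Ac was lost in the last pair of comparisons (-0.64 and -0.54). For CMC the block gave 90 loci and 7 elements.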

Other observations

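Beside the hAT loci, 249 loci carried the class DNA# with the family hAT#, the marks of an uncertain annotation, and were left out. They held between 0.0017% and 0.0436% of the counts of a library. Of the 39 of them tested in the Ψ-IP experiment, 0 were higher and 16 (41.0%) lower in Ψ-IP than in input by edgeR's quasi-likelihood test, beside 4.95% and 11.1% of all loci tested, with a median log2 fold change of -1.28. In flow-through against input, 0 were higher and 19 (48.7%) lower, beside 6.58% and 8.88% of all loci, with a median of -2.31. Ψ-IP and flow-through share the input libraries in these counts.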
